A study of Mus musculus with 11 samples.

Results

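The 7 genes described here are Tenm2, Gask1b, Rgs17, Gpnmb, Ostn, Crabp2 and Crispld2. Each was close to silent in 1 HER2 group of the MamBo mammary carcinoma lines and higher in every library of the other. Rgs17 was low in part of its higher group, with 40 and 70 counts in the HER2-negative MamBo43 libraries. The members were picked by name, from 21846 genes in the count table, for their counts in the comparison of HER2-negative with HER2-positive libraries. Their difference between those groups is therefore a description and was not tested. All 7 had enough counts to enter that comparison, in which 12364 genes were measured, and 6 of them were higher in HER2-negative libraries. Crispld2 was the 1 member with the opposite pattern.

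The labels list 11 cultures with 1 RNA-seq library each. The lines come from tumors of FVB mice transgenic for human HER2: tumor A gave the MamBo89 line, whose HER2 is stable, and tumor B gave MamBo43, whose HER2 is labile. MamBo38 was derived from a HER2-negative tumor that grew after injection of MamBo43. The 5 HER2-positive libraries were MamBo89 untreated, MamBo89 AG3 untreated (taken as the HER2-positive clone that the methods list, although its label does not call it a clone), MamBo89 under each of both trastuzumab schedules, and untreated MamBo43. The 6 HER2-negative libraries were untreated MamBo38, sequenced under each of both library codes in the labels (codes a and b), MamBo38 under each schedule (code a), and MamBo43 TRT under each schedule, which had been seeded at high density and had lost HER2 in culture. Trastuzumab, an antibody against human HER2, was given at 30 µg/ml for 60 days, or for 30 days followed by 30 days without it (30+30 days). In MamBo43 kept under trastuzumab at high density, the paper still detected a small share of HER2-positive cells. Code a stands on 3 MamBo38 libraries and code b on the other 8 libraries, and the labels do not say what the codes mean. Every HER2-positive library but that of MamBo43 comes from tumor A, so HER2 status, line and tumor of origin cannot be fully told apart.

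Total counts ranged from 17040454 to 27127662 per library, with a median of 20592201. Values are in CPM, the counts of a gene relative to the library size after TMM scaling, and 3 counts correspond to between 0.114 and 0.179 CPM. Counting intervals and bounds cover counting error only. The row of mouse Erbb2 was at 21.8 ± 5.25 CPM (SD, n = 6) in HER2-negative and 147 ± 20.7 (n = 5) in HER2-positive libraries. Reads were counted on the mouse genome, and whether reads of the human HER2 transgene entered this row was not tested. Of the fibroblast markers, 8 of 8 tested were called higher in HER2-negative libraries, as were 15.8% of all tested genes. Their list summed to 6951 to 8746 CPM against 76.8 to 388. Of the untested ones, Lum was at 0 in every library, Fap was at no more than 0.230 CPM, and Fap and Thy1 overlapped between the groups. Of the mammary epithelial markers, 6 of 11 tested were called lower, as were 17% of all tested genes. Their list summed to 2.02 to 2501 against 2820 to 4153 CPM. In such bulk RNA, a change in the share of cells that express a gene and a change in its level per cell cannot be told apart. Untreated MamBo38 of code b stood apart from the 3 other MamBo38 libraries, and MamBo89 AG3 from the other untreated MamBo89 library, so that the tests between lines and treatments that rest on them are also given without them.

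The members have unrelated functions. Tenm2 encodes a teneurin, a large transmembrane protein that binds latrophilin receptors on neighboring cells. Gask1b encodes a Golgi-associated protein related to the secretory-pathway kinases. Rgs17 belongs to the RZ class of regulators of G-protein signaling, which speed the hydrolysis of GTP by inhibitory G-protein subunits and so end receptor signals. Gpnmb is a transmembrane glycoprotein of melanosomes and lysosomes, known from melanocytes, osteoclasts and macrophages, and a target of the MiT/TFE transcription factors. Ostn encodes osteocrin (musclin), a secreted peptide of bone and muscle that binds the natriuretic peptide clearance receptor Npr3. Crabp2 carries retinoic acid to its nuclear receptors. Crispld2 encodes a secreted protein with CAP and LCCL domains.

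The genes lie apart from each other on mouse build GRCm38, by GENCODE M21: Tenm2 (ENSMUSG00000049336) at chr11:36006656-37235964 on the minus strand, Gask1b (ENSMUSG00000027955, listed there as Fam198b) at chr3:79884533-79946280 on the plus strand, and Rgs17 (ENSMUSG00000019775) at chr10:5825663-5922400 on the minus strand. Gpnmb (ENSMUSG00000029816) lies at chr6:49036546-49070929, Ostn (ENSMUSG00000052276) at chr16:27307489-27351212, Crabp2 (ENSMUSG00000004885) at chr3:87948666-87953376 and Crispld2 (ENSMUSG00000031825) at chr8:119992438-120052793, each on the plus strand. No 75-base window of Tenm2, Rgs17, Gpnmb, Crabp2 or Crispld2 transcripts occurred in those of another gene, so reads of these genes were not shared with a copy. For Gask1b 6.68% of windows, and for Ostn 8.30%, also matched other genes. For Ostn this was the antisense gene Gm32312, and for Gask1b it was the antisense gene Gm36569 and Gm43756, which lies on another chromosome. The library kit keeps no strand, so reads of these windows cannot be assigned to 1 of the genes.

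RefSeq promoters (GRCm38.p6, from 250 bases before to 50 after the annotated start) were on hand for 5 of the 7 members. They were searched on both strands for 5 motifs. The letters CACCTG are the E-box of ZEB and SNAI factors, and CACGTG is the E-box of MYC and the MiT/TFE factors. AP-1 binds TGACTCA, TEAD factors bind GGAATG, and the element of core promoters named after its letters was searched as TATAAA alone. The Rgs17 and Gpnmb promoters are shown because these genes were expressed at unequal levels in the HER2-negative lines, as given further on, and both hold TGACTCA. Crispld2 is shown as the member with the opposite pattern. Capitals mark the matched motif.
Rgs17, chr10:5922351-5922650, minus strand: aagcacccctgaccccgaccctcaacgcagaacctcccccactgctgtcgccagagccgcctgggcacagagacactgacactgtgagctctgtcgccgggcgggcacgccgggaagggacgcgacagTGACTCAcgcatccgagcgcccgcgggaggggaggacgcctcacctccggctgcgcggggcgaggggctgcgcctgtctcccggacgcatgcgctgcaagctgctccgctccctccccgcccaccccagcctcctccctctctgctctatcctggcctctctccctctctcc
Gpnmb, chr6:49036268-49036567, plus strand: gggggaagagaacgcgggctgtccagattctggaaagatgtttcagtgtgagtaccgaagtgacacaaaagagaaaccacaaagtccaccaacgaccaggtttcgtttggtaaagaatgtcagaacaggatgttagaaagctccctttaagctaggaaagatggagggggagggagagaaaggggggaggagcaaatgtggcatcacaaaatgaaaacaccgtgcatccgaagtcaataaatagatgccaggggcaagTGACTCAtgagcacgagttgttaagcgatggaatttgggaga
Crispld2, chr8:119992188-119992487, plus strand: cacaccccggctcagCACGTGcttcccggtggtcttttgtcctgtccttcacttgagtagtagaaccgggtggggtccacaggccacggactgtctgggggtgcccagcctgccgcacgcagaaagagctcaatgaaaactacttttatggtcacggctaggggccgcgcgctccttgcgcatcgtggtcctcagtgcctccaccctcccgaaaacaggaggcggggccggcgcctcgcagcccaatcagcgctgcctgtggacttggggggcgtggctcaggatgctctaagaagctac

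The AP-1 letters began 122 bases before the start of Rgs17 and at base 8 counted from the start of Gpnmb, and 5.20% of 32851 mouse promoters of the same length hold them. The Crispld2 window held CACGTG, as did 7.15% of promoters, and the Tenm2 window held CACCTG on the reverse strand, as did 20.2%. The Gask1b window held none of the 5 motifs. No match overlapped another, and a match of letters is not a binding site. The median promoter held 7 CpG pairs. The Rgs17 (27), Crispld2 (20) and Gpnmb (9) windows held more, and exceeded 84.5%, 73.5% and 54.2% of promoters. The Gask1b (3) and Tenm2 (2) windows held fewer, and exceeded 23.3% and 14.1%. No GENCODE transcript began at the RefSeq start of the Tenm2 or the Gpnmb window. The Tenm2 window, chr11:36944192-36944491, lies inside the gene span given above, so its CACCTG and CpG pairs belong to an internal start.

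**Figure D1:**
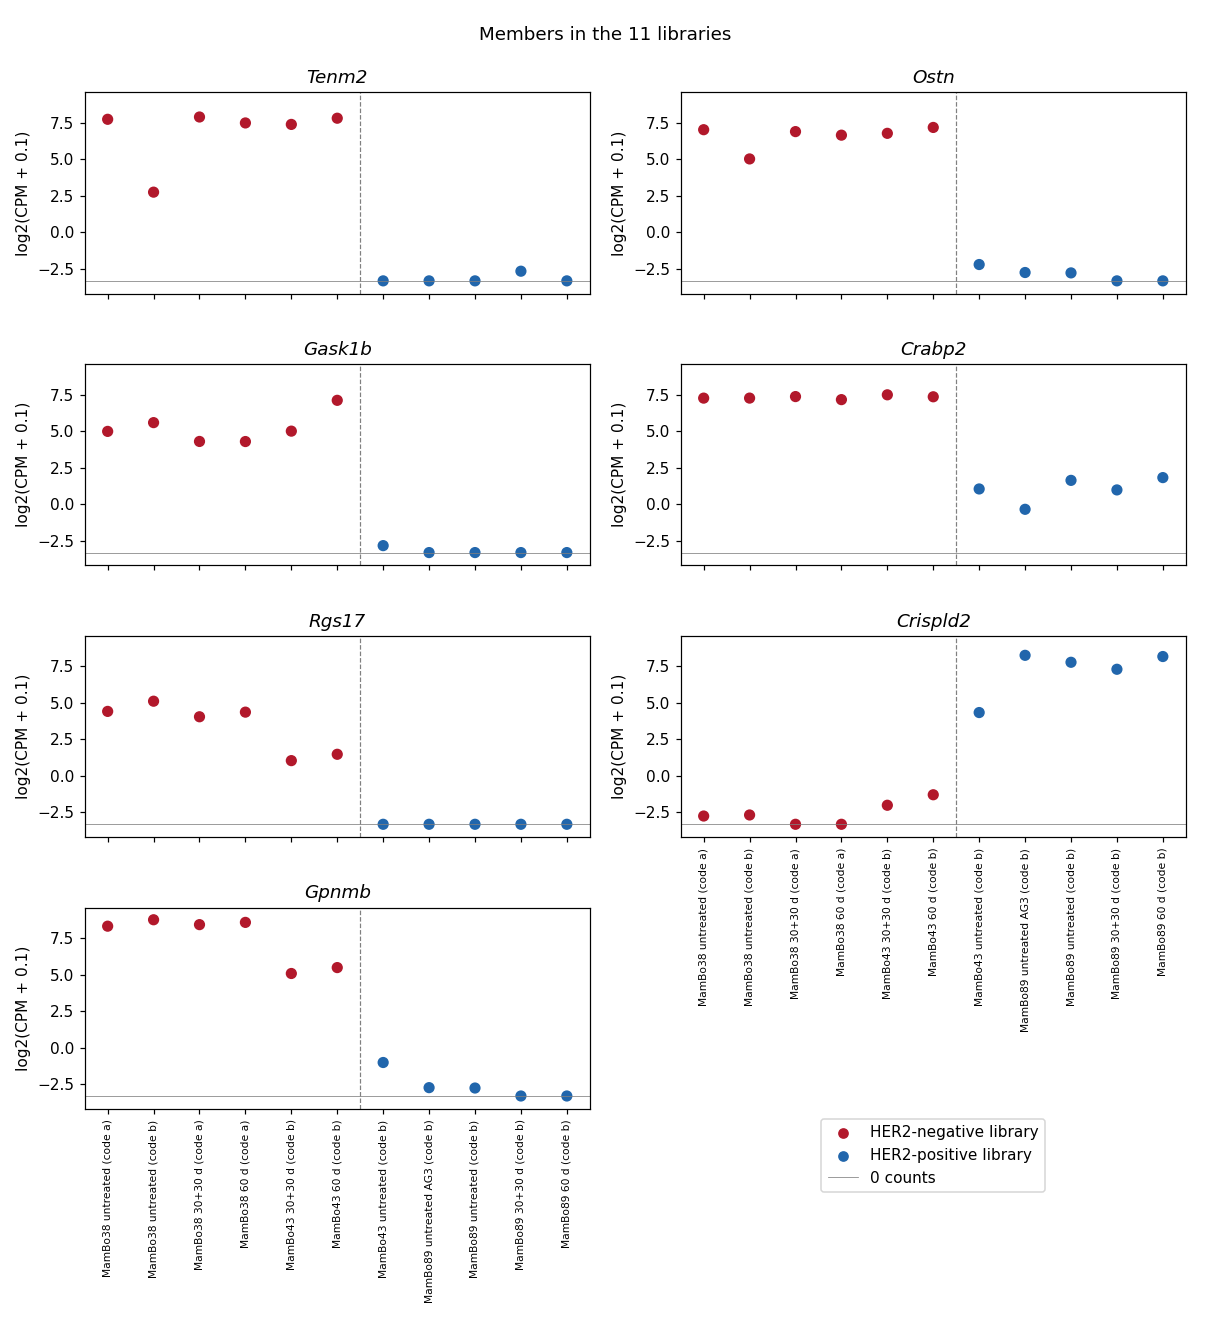
Level of each member in the 11 libraries as log2(CPM + 0.1), 1 point for each library, with the library code in parentheses. HER2-negative libraries (red) are left of the dashed line and HER2-positive ones (blue) right of it; the grey line marks 0 counts. Each member separates the groups completely, and Tenm2 is lowest among HER2-negative libraries in untreated MamBo38 of code b, at 6.67 CPM.

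Between the HER2 groups, no member overlapped in any library, as was the case for 34.9% of the genes tested. All 7 also pass the adjusted p and fold limits used for calling, as did 32.8% of genes (15.8% higher and 17% lower in HER2-negative libraries), but since they were chosen on this comparison nothing follows from it. A pattern in which 1 group stays at 5 CPM or less in every library and the other has a median of at least 10 CPM, limits chosen with the values known, was met by 305 genes (2.47%) in the direction of the 6 members and by 211 (1.71%) in that of Crispld2. By absolute log2 fold change, Tenm2 ranked first of the 12364 genes, at 13.43. Gask1b (11.60), Rgs17 (11.42), Gpnmb (11.11), Ostn (10.96) and Crispld2 (-10.89) ranked 4, 5, 7, 9 and 10, and Crabp2 (6.19) ranked 338. These fitted values depend on the prior count where a group is near 0: with a prior count of 2 instead of 0.125, Tenm2 was at 10.69 and Rgs17 at 7.43.

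Tenm2 was at 216, 6.67, 241 and 182 CPM in MamBo38 (untreated of code a, untreated of code b, 30+30 days and 60 days) and at 169 and 227 CPM in MamBo43 TRT (30+30 and 60 days). In the 5 HER2-positive libraries together, a single Tenm2 count was found, in MamBo89 after 30+30 days. The mean was 174 ± 86.2 CPM (SD, n = 6) in HER2-negative libraries, and the ratio of summed counts was 18378, with an exact 95% interval of 3298 to 725922. Thus 5 HER2-negative libraries lay between 169 and 241 CPM and 1, which was still above every HER2-positive library, had far less.

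Gask1b was measured at 31.6, 48.0, 19.6 and 19.5 CPM in the same order of MamBo38 libraries and at 32.0 and 139 in MamBo43 TRT. Its only count in HER2-positive cells was 1, in untreated MamBo43. The HER2-negative mean of 48.2 ± 45.6 CPM (n = 6) was raised by the MamBo43 library of 60 days, and the ratio of summed counts was 5339 (958 to 210927). Rgs17 had 21.3, 34.6, 16.5 and 20.5 CPM in MamBo38 and 1.96 and 2.68 CPM in MamBo43 TRT, which were 40 and 70 counts. No Rgs17 count was found in any HER2-positive library, so that the HER2-negative mean of 16.3 ± 12.4 CPM (n = 6) was at least 110-fold higher than 3 counts per library. Rgs17 thus had the lowest mean of the 6 members, and the 2 MamBo43 libraries lay below all MamBo38 libraries.

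Gpnmb had the highest CPM of the members in each MamBo38 library, with 320, 434, 344 and 383. In MamBo43 TRT it was at 33.7 and 44.6 CPM, below Crabp2, Tenm2 and Ostn in both libraries. HER2-positive libraries held 12 Gpnmb counts in all, 10 of them in untreated MamBo43 (0.391 CPM), and none in trastuzumab-treated MamBo89. The ratio of summed counts between the groups was 2158 (1235 to 4177). Ostn reached 132, 32.8, 120 and 102 CPM in MamBo38 and 111 and 147 in MamBo43 TRT, while HER2-positive libraries held 5 counts, 3 of them in untreated MamBo43. The ratio for Ostn was 2272 (973 to 6998), and the same MamBo38 library was lowest as for Tenm2.

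Crabp2 differed from the other members in being even in 1 group and above the floor in the other. It was at 154.0, 154.2, 166 and 143 CPM in MamBo38 and at 180 and 164 in MamBo43 TRT, a mean of 160 ± 12.7 (n = 6) with a coefficient of variation of 7.93%, against 37.1% to 94.5% for the 5 other members that were expressed in these libraries. In HER2-positive libraries it was at 0.682 CPM in MamBo89 AG3, 2.99 in untreated MamBo89, 1.86 and 3.43 in MamBo89 after 30+30 and 60 days, and 1.96 in untreated MamBo43. The ratio of summed counts was 73.7 (64.6 to 84.4). Hence Crabp2 was low but detected in every HER2-positive library, with 14 to 65 counts.

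Crispld2 had the reverse order of groups. It was at 307, 221, 158 and 290 CPM in MamBo89 (AG3, untreated, 30+30 days and 60 days) and at 20.1 CPM in untreated MamBo43. The 4 MamBo38 libraries held 1, 1, 0 and 0 counts, and MamBo43 TRT held 3 and 8 counts (0.147 and 0.307 CPM). The ratio of HER2-positive over HER2-negative summed counts was 1878 (1098 to 3528). Within each HER2 group, the MamBo43 libraries were thus those nearest to the other group.

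Scaled to exon length, the order of the members changed. Crabp2 was highest in HER2-negative libraries, at 121 ± 9.62 CPM per kb, followed by Ostn (75.4 ± 28.0), Gpnmb (39.9 ± 26.9), Tenm2 (15.1 ± 7.52), Gask1b (5.03 ± 4.75) and Rgs17 (1.96 ± 1.49). In HER2-positive libraries, Crispld2 was at 41.7 ± 24.3 CPM per kb. Crabp2 and Ostn did not overlap in any library, whereas each later neighbor in this order overlapped with the next. This order pools both lines. In MamBo38 it was the same, but in MamBo43 TRT Gpnmb, at 6.01 ± 1.19 CPM per kb (n = 2), came after Tenm2 (17.3 ± 3.57) and Gask1b (8.89 ± 7.86). Gask1b was above Gpnmb only after 60 days (14.5 against 6.85 CPM per kb). After 30+30 days it was below Gpnmb (3.33 against 5.17).

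Next, MamBo43 before and after trastuzumab was considered, since these cells changed HER2 status in culture. The comparison crosses HER2 status and rests on 1 untreated library, so values are given with no test. Ostn went from 3 counts to 111 and 147 CPM after 30+30 and 60 days, ratios of 944 (323 to 4582) and 1250 (427 to 6062). Crabp2 was 92.2 (69.8 to 124) and 83.9 times (63.5 to 113) its untreated level, and Gpnmb 86.0 (46.5 to 180) and 114 times (61.8 to 238). From a single count, Gask1b reached ratios of 818 (146 to 32348) and 3546 (636 to 140094). Tenm2 and Rgs17 had no count in the untreated library and, set against 3 counts, were at least 1443-fold and 1937-fold, and at least 16.7-fold and 22.9-fold, higher. The lower limits of their exact intervals were smaller, at 1173 and 1575 for Tenm2 and 13.0 and 18.1 for Rgs17. Crispld2 was lower by 137-fold (46.6 to 667) and 65.7-fold (33.1 to 153). The directions within MamBo43 were set by the choice of members, whose HER2 groups do not overlap.

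Both routes to a HER2-negative state were then compared, MamBo43 TRT (n = 2), which had lost HER2 in culture under trastuzumab, and MamBo38 (n = 4), derived from a tumor. This comparison was not used to choose the members, and edgeR was used to test all 12545 genes with enough counts. Gpnmb and Rgs17 were lower in MamBo43 TRT. Gpnmb was at 39.1 ± 7.74 CPM against 370 ± 49.9, a log2 fold change of -3.24 (SE 0.19, edgeR adjusted p = 0.000161). Rgs17 was at 2.32 ± 0.513 CPM against 23.2 ± 7.87, a log2 fold change of -3.31 (SE 0.37, edgeR adjusted p = 0.000781). Of all genes, 21.6% were called, 9.9% higher and 11.7% lower. The epithelial markers moved with this difference: they summed to 2501 and 516 CPM in MamBo43 TRT of 30+30 and 60 days and to 2.02 to 3.23 CPM in MamBo38. The macrophage list, whose sum was mostly Cd68 and Cd14, was at 10.9 and 8.25 CPM in MamBo43 TRT and 35.3 to 62.0 CPM in MamBo38. Its Ptprc, Adgre1, Csf1r and Tyrobp were at 3 counts or fewer in every library, and its sum was 77.0 to 427 CPM in HER2-positive libraries. The part of either list in the difference was not tested. Both calls held in each of 10 alternatives, with log2 fold changes of -3.47 to -3.04 for Gpnmb and -3.89 to -3.04 for Rgs17.

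Gask1b was higher in MamBo43 TRT, at 85.4 ± 75.5 CPM against 29.7 ± 13.5, with a log2 fold change of 1.53 (SE 0.57, edgeR adjusted p = 0.0647). This call rested on single libraries: without MamBo43 of 60 days it fell to 0.14 on the log2 scale (edgeR adjusted p = 0.860). It was also lost without untreated MamBo38 of code a (1.56, edgeR adjusted p = 0.117) and without MamBo38 of 30+30 days (1.39, edgeR adjusted p = 0.128) or 60 days (1.36, edgeR adjusted p = 0.137). Ostn (0.42, SE 0.47, edgeR adjusted p = 0.497), Crabp2 (0.16, SE 0.10, edgeR adjusted p = 0.237) and Tenm2 (0.30, SE 0.98, edgeR adjusted p = 0.823) did not pass the test. Without untreated MamBo38 of code b, Tenm2 was at -0.09 (edgeR adjusted p = 0.659), Ostn at 0.13 (edgeR adjusted p = 0.504) and Gask1b at 1.87 (edgeR adjusted p = 0.0258). Within code b, MamBo38 was represented by that library alone, the one already low in Tenm2 and Ostn, and was assumed to vary like the 2 MamBo43 TRT libraries. In that fit Tenm2 (4.89, edgeR adjusted p = 0.0133) and Ostn (1.97, edgeR adjusted p = 0.0276) were higher in MamBo43 TRT and Gask1b (0.83, edgeR adjusted p = 0.539) was not called. Crispld2 had too few counts for a test.

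**Figure D2:**
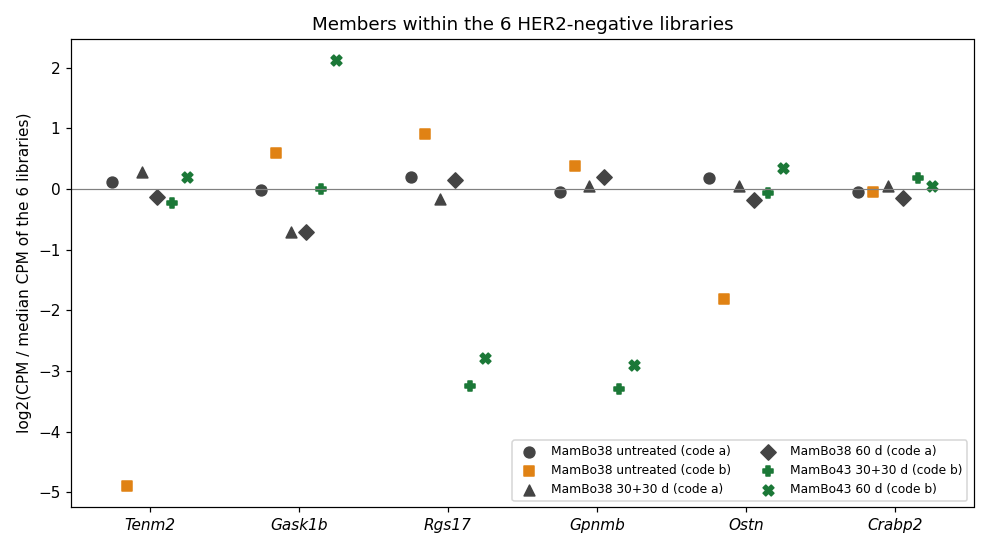
Each HER2-negative library's CPM over the median CPM of the 6, on a log2 scale, for the 6 members higher in this group, 1 point for each library. MamBo43 TRT (green) is low in Rgs17 and Gpnmb and 1 of its libraries is high in Gask1b, at 139 CPM, while untreated MamBo38 of code b (orange) is low in Tenm2 and Ostn, at 6.67 and 32.8 CPM.

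Untreated MamBo38 of code b (n = 1) was also set beside the 3 MamBo38 libraries of code a. This comparison was added after the values were seen and assumes that the lone library varies like the others. It also sets code beside treatment, since 2 of the 3 had received trastuzumab. With 1 library of code b, it cannot show a difference by library code, so effect sizes are given as a description. Tenm2 was lower in the library of code b, at 6.67 CPM against 213 ± 29.8, with a log2 fold change of -5.00. Ostn was lower as well, at 32.8 CPM against 118 ± 15.2 (-1.86). Gask1b was higher at 48.0 CPM against 23.6 ± 6.98 (1.02). Gask1b fell below the fold limit without MamBo38 of 30+30 days (0.90) and without that of 60 days (0.88). Rgs17 (0.82) did not reach the fold limit, nor did Gpnmb (0.31), and Crabp2 was at 154.2 against 154 ± 11.2 CPM. Of 12206 genes, 8.53% were called, 5.09% higher and 3.44% lower. In these 4 libraries, the epithelial markers summed to 2.02 to 3.23 CPM and the fibroblast markers to 6951 to 8132 CPM.

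The effect of trastuzumab within a line that kept its HER2 status was tested in MamBo38 and in MamBo89, with 2 treated and 2 untreated libraries each. No gene was called in MamBo38 by edgeR (0% of 11861, with 503 at an unadjusted p under 0.05 and 4 called by DESeq2). Gask1b was at 19.6 and 19.5 CPM in treated and 31.6 and 48.0 in untreated MamBo38, a log2 fold change of -1.04 (SE 0.22, edgeR adjusted p = 0.663). Rgs17 was at 16.5 and 20.5 against 21.3 and 34.6 CPM (-0.60, SE 0.26, edgeR adjusted p = 0.663). Neither gene overlapped between treated and untreated libraries, which held for 43.1% of genes. The other members had log2 fold changes of 0.89 for Tenm2 (SE 1.297), 0.41 for Ostn (SE 0.62), -0.07 for Gpnmb (SE 0.17) and -0.01 for Crabp2 (SE 0.12), with edgeR adjusted p of 0.801, 0.809, 0.887 and 0.972. Without untreated MamBo38 of code a, the untreated side was left with the library of code b, assumed to vary like the treated ones, and Tenm2 (4.99, edgeR adjusted p = 7.31e-09), Ostn (1.77, edgeR adjusted p = 1.07e-06) and Gask1b (-1.29, edgeR adjusted p = 5.39e-06) were called among 1057 genes. Without the library of code b instead, Tenm2 was at -0.06 (edgeR adjusted p = 0.954), Ostn at -0.28 (edgeR adjusted p = 0.674), Gask1b at -0.72 (edgeR adjusted p = 0.0661) and Rgs17 at -0.22 (edgeR adjusted p = 0.783), and no member was called among 8 genes. The values of Tenm2 and Ostn thus changed sign with the untreated library that was kept.

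In MamBo89, no gene was called by edgeR either (0% of 12046, with 186 at an unadjusted p under 0.05 and 3 called by DESeq2). Crispld2 was at 158 and 290 CPM in treated and 307 and 221 in untreated cells, so that the groups overlapped, with a log2 fold change of -0.23 (SE 0.36, edgeR adjusted p = 0.945). Crabp2 was at 1.86 and 3.43 against 0.682 and 2.99 CPM (0.54, SE 0.83, edgeR adjusted p = 0.945). With AG3 as the only untreated library, Crabp2 was called (1.93, edgeR adjusted p = 0.0713), as were 2296 genes. Without AG3 it was at -0.16 and Crispld2 at 0.04 (edgeR adjusted p = 0.99988 for both), the opposite sign in each case, and 5 genes were called. Either fit has a lone untreated library, assumed to vary like the treated ones. The 5 remaining members were at 0 or 1 count in each MamBo89 library and could not be tested. In a test of whether the effect of trastuzumab differed between MamBo89 and MamBo38, Crabp2, the 1 member expressed in both lines, had a difference of 0.53 in log2 fold change (edgeR adjusted p = 0.99998). The 6 other members were near 0 in 1 of the lines, so that the test says nothing about them.

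Among untreated HER2-positive cells, MamBo43 (n = 1), the line that can lose HER2, was compared with MamBo89 (n = 2, AG3 included). Crispld2 was lower in the MamBo43 library, at 20.1 CPM against 264 ± 61.2, a log2 fold change of -3.69. Of 12867 genes, 7.4% were called and 2.53% were lower. In 5 alternatives, the log2 fold change of Crispld2 lay between -3.69 and -3.44. These included taking all 4 MamBo89 libraries or the 3 other than AG3, but each used the same MamBo43 library. Crabp2 was at 1.96 against 1.84 ± 1.63 CPM (0.12). The test assumes that the lone MamBo43 library varies like those of MamBo89, so it cannot show a difference between the lines. Of the members too low for a test, Gpnmb had 10 counts in MamBo43 and 1 in each untreated MamBo89 library.

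The relatives of each member, counted without the member, were then examined in the HER2 comparison, for which they were tested by edgeR across all 12364 genes. Their log2 fold changes are read beside the median of all genes, -0.04, and beside the 32.8% of genes called. The tumor of origin was also fitted as a covariate, in which case 21 of the 33 called relatives were still called, 9 were not and 3 changed sign.

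Among teneurins, their latrophilin receptors and the FLRT proteins that bind latrophilins, 3 of 7 tested were higher, 1 was lower and the median log2 fold change was 1.06. Tenm4, a teneurin, was at 484 ± 146 CPM in HER2-negative and 108 ± 83.8 in HER2-positive libraries (2.16, SE 0.52, edgeR adjusted p = 0.00485), and unlike Tenm2 it was expressed in all of them, at 27.4 to 229 CPM in HER2-positive ones. Flrt2 was higher (4.25, SE 0.51, edgeR adjusted p = 5.96e-05), as was Flrt1 at under 1.2 CPM (1.68, SE 0.69, edgeR adjusted p = 0.0591). Adgrl3, a latrophilin, was lower, at 19.01 ± 7.92 against 83.4 ± 18.3 CPM (-2.14, SE 0.26, edgeR adjusted p = 7.07e-05). These 4 calls held with the tumor covariate. Of the other teneurins, Tenm3 was at 3 counts or fewer. Tenm1 reached 9.20 CPM in MamBo89, but was at 0 in untreated MamBo43 and at no more than 0.0597 CPM in HER2-negative libraries.

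Of 9 tested secretory-pathway kinases and related genes, 2 were higher and 3 lower, with a median of -0.69. Dipk1a was higher (2.25, SE 0.29, edgeR adjusted p = 9.90e-05) and Fjx1, a Golgi kinase, was lower (-2.39, SE 0.39, edgeR adjusted p = 0.000426). Dipk2a (1.18), Dipk1b (-1.16) and Fam20a (-1.71) were not called with the tumor covariate (0.60, -0.19 and -0.34). Fam20a was also not called without any 1 of 4 libraries (untreated MamBo38 of code b, MamBo38 of 30+30 days, untreated MamBo89 and MamBo89 of 60 days), at -1.61 to -1.51. The closest paralog of Gask1b, Gask1a, was at or under 0.326 CPM in every library.

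For RGS proteins, 1 of 8 tested was higher and 2 were lower, with a median of -0.39. Rgs2, which acts on Gq subunits, was at 151 ± 23.1 CPM in HER2-negative and 17.2 ± 10.9 in HER2-positive libraries (3.12, SE 0.36, edgeR adjusted p = 4.54e-05). Rgs11 was lower (-3.56, SE 0.36, edgeR adjusted p = 2.15e-05). In the RZ class to which Rgs17 belongs, Rgs19 was at 23.4 ± 4.77 against 30.1 ± 8.91 CPM (-0.37, SE 0.21, edgeR adjusted p = 0.158). Rgs20 was called lower (-1.14, SE 0.50, edgeR adjusted p = 0.0742) but was at 0.67 with the tumor covariate. It lost its call without any 1 of 8 libraries (untreated MamBo38 of code a, both treated MamBo38, both MamBo43 TRT, untreated MamBo89 and both treated MamBo89), at -1.17 to -0.96. Neither RZ relative was called higher, unlike the direction of Rgs17.

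In the list of MiT/TFE factors and lysosomal genes, chosen for Gpnmb, 7 of 20 tested were higher and 1 was lower, with a median of 0.52. The cathepsin Ctsl was at 2910 ± 1295 against 175 ± 55.7 CPM (4.05, SE 0.38, edgeR adjusted p = 1.35e-05) and Ctsb at 1984 ± 511 against 449 ± 171 (2.14, SE 0.33, edgeR adjusted p = 0.000313). The hexosaminidase subunit Hexa (2.58, edgeR adjusted p = 2.46e-06) and the autophagy receptor Sqstm1 (1.49, edgeR adjusted p = 0.000519) were also higher. Ctsk (3.85) and the proton pump subunit Atp6v0d2 (8.34, at 0 in HER2-positive libraries and at most 5.00 CPM in HER2-negative ones) were called, but not with the tumor covariate, where they were as large (4.31, edgeR adjusted p = 0.197, and 8.34, edgeR adjusted p = 0.156). Among the factors, Mitf was just past the fold limit (1.01, SE 0.20, edgeR adjusted p = 0.00130), Tfe3 was not called (0.15) and Tfeb was lower (-1.83, SE 0.22, edgeR adjusted p = 6.68e-05). Mitf was at 0.49 with the tumor covariate, and at 0.93 to 0.99 without any 1 of 5 libraries (untreated MamBo38 of code b, MamBo38 of 60 days, and untreated, 30+30-day and 60-day MamBo89).

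Gpnmb is known from macrophages and melanocytes, and markers of these cells were therefore read beside it. Among the macrophage markers, Ptprc, Adgre1, Csf1r and Tyrobp were at 3 counts or fewer in every library, Cd68 was higher and Cd14 lower in HER2-negative libraries, and the summed level was 8.25 to 62.0 against 77.0 to 427 CPM. Of the melanocyte markers, Tyr and Tyrp1 were at 3 counts or fewer in every library. Dct, Mlana and Pmel were at no more than 0.882 CPM, and Sox10 was at 0 in HER2-negative and up to 5.16 CPM in HER2-positive libraries. Mitf, at 14.1 ± 1.57 against 6.94 ± 1.82 CPM, made up most of the summed level, which was 12.5 to 16.9 against 6.75 to 13.0 CPM. Ostn is known from muscle, and Myod1, Myog and Myf5 were at 0 in every library, while the summed muscle level was 1.75 to 5.06 against 0.117 to 0.598 CPM. The muscle marker Des was higher in HER2-negative libraries, at 1.55 ± 0.461 against 0.0666 ± 0.0933 CPM (4.40, SE 0.79, edgeR adjusted p = 0.000820), with no overlap. Endothelial markers summed to 0.588 to 1.83 against 0.391 to 1.11 CPM. The share of these levels in the members' values was not tested.

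Of the natriuretic peptide system, 1 of 7 tested was higher and none lower, with a median of -0.56. Npr1, a guanylyl cyclase receptor, was at 0.460 to 3.72 CPM in HER2-negative and 0.117 to 0.584 in HER2-positive libraries (2.83, SE 0.64, edgeR adjusted p = 0.00363). The Ostn receptor Npr3 was at 9.45 ± 7.58 against 13.9 ± 17.8 CPM (-0.56, SE 0.73, edgeR adjusted p = 0.538), with its highest level, 45.6 CPM, in untreated MamBo43. Nppc, the peptide that signals through Npr2, was at no more than 0.144 CPM in HER2-negative libraries and at 0 in untreated MamBo43. It reached 6.82 CPM in MamBo89, with too few counts overall for a test. Npr3 was thus detected in all 11 libraries, also in the 5 that held at most 3 Ostn counts each.

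For retinoid handling, 4 of 13 tested were higher and 4 lower, with a median of -0.31. Crabp1, the paralog of Crabp2, was higher (10.72, SE 1.87, edgeR adjusted p = 0.000685), at 42.6 ± 46.1 CPM against at most 1 count per HER2-positive library. Within the HER2-negative group, Crabp1 was at 36.7, 126, 39.8 and 52.3 CPM in MamBo38 and at 0.784 and 0.307 in MamBo43 TRT, whereas Crabp2 was at 143 to 180 CPM in these 6 libraries. The retinoic acid receptor Rarg (1.37, SE 0.26, edgeR adjusted p = 0.00110) and Rarres1, a retinoid-responsive gene (6.55, SE 0.88, edgeR adjusted p = 0.000129), were higher. Cyp26b1, which degrades retinoic acid, was lower (-1.64, SE 0.37, edgeR adjusted p = 0.00348). Dhrs3 (1.23), Rara (-1.13), Aldh1a3 (-3.50) and Fabp5 (-1.25) were called but not with the tumor covariate, where they were at 0.22, -0.77, 2.85 and 0.93. Fabp5 was also not called without any 1 of 4 libraries (untreated MamBo38 of code b and untreated, 30+30-day and 60-day MamBo89), at -1.15 to -0.95.

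All 4 tested relatives of Crispld2 with CAP or LCCL domains were called, 3 of them higher and 1 lower, with a median of 2.24. Glipr1, a CAP protein, was at 195 ± 55.3 CPM in HER2-negative libraries and at most 0.509 CPM in HER2-positive ones (10.30, SE 0.74, edgeR adjusted p = 3.20e-06), the reverse of Crispld2. Glipr2 (2.95, SE 0.53, edgeR adjusted p = 0.000784; 2.33 with the tumor covariate, edgeR adjusted p = 0.114) and Dcbld2 (1.53, SE 0.34, edgeR adjusted p = 0.00312) were higher and Dcbld1 was lower (-1.39, SE 0.20, edgeR adjusted p = 0.000177). Crispld1, the closest paralog, was at or under 0.612 CPM. Crispld2 and Dcbld1 were hence the tested genes of this list that were lower in HER2-negative libraries.

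**Figure D3:**
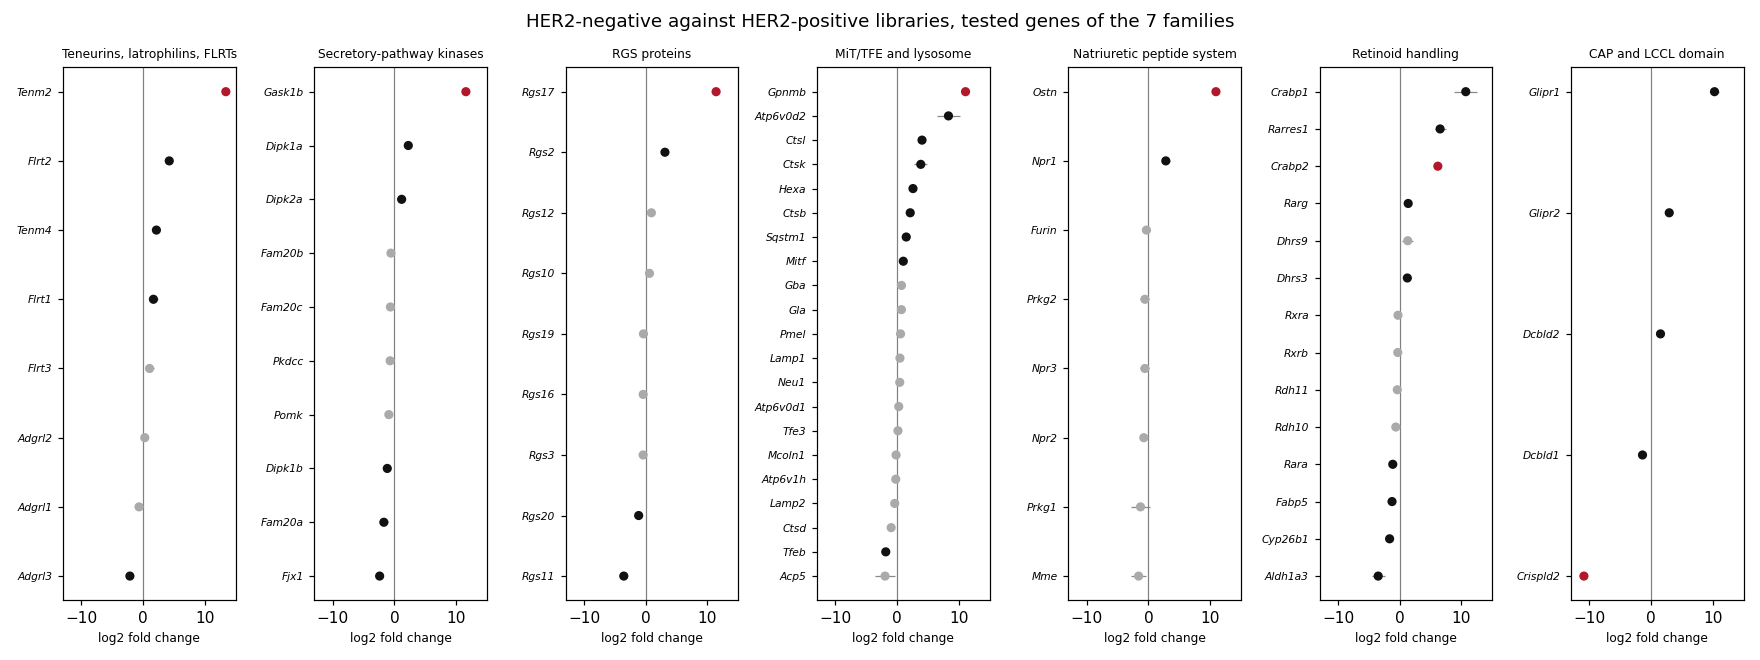
Log2 fold change of HER2-negative over HER2-positive libraries for the tested genes of the 7 families, 1 panel each. Red points are the members (chosen on this comparison, no error drawn), black points are called relatives and grey points are relatives that did not pass, with bars for the SE; Glipr1 at 10.30 and Crispld2 at -10.89 sit at opposite ends of their panel.

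**Figure D4:**
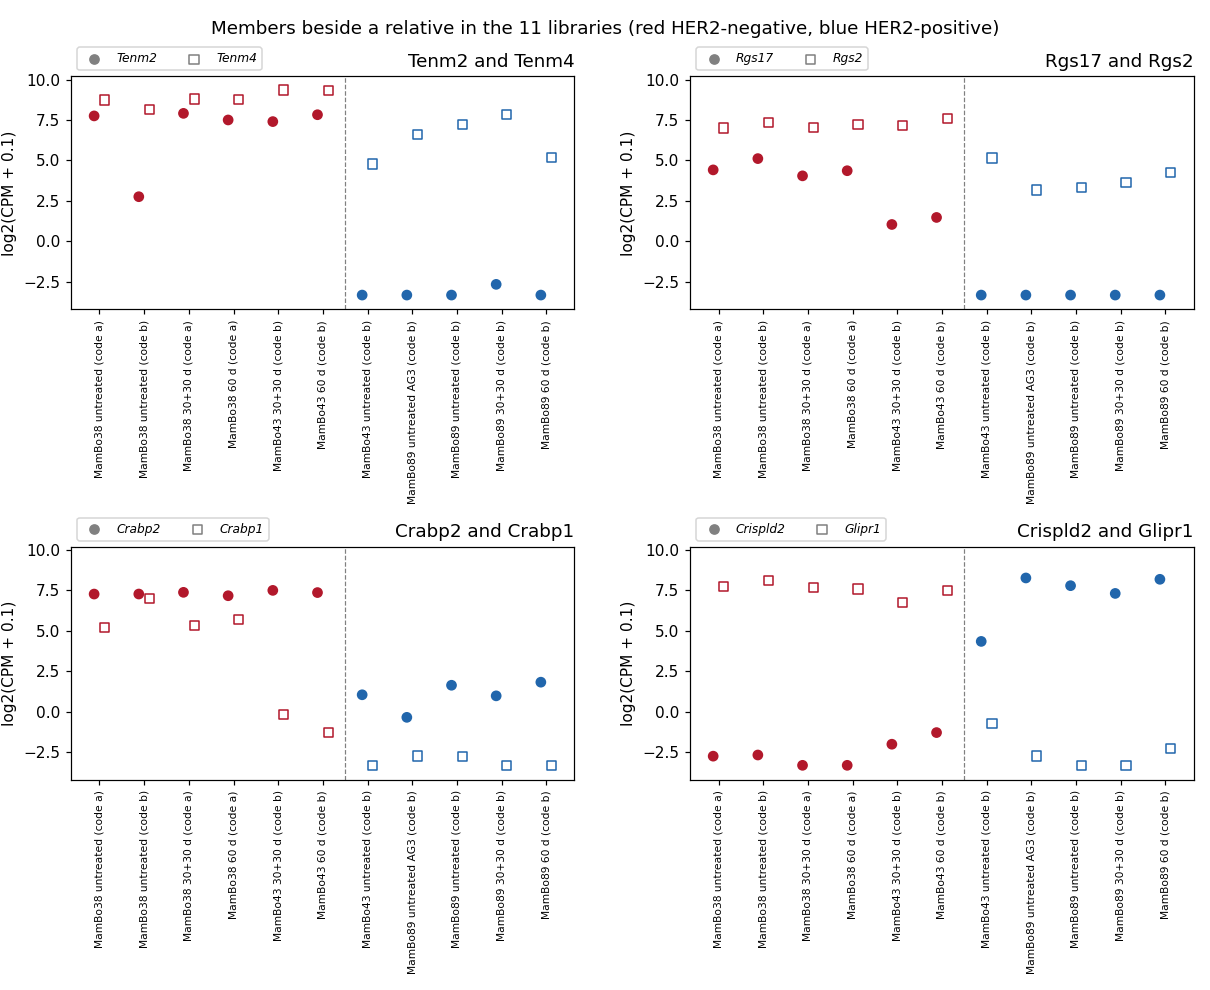
Levels of 4 members (filled circles) and a relative (open squares) in the 11 libraries as log2(CPM + 0.1), red for HER2-negative and blue for HER2-positive. Tenm4 and Rgs2 are detected in every library, Crabp1 is low in both MamBo43 TRT libraries, at 0.784 and 0.307 CPM, and Glipr1 runs opposite to Crispld2.

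The tested genes whose log2(CPM + 1) followed each member most closely over the 11 libraries were ranked by Pearson's r. The libraries form the very groups by which the members were picked, so that a high r is shared by many genes and is given as a description. For Tenm2 they were Slit1 (r = 0.995), Nat8f3 (0.994) and Nat8f6 (0.994), each with little expression in untreated MamBo38 of code b (1.95, 1.61 and 0.445 CPM). For Ostn they were Pde1a, Dnmt3l (0.999) and Mamdc2 (0.998), which among HER2-negative libraries were also lowest in that library. Rgs17 was followed by Ptgfr (0.997), Ccn3 (0.996) and Kctd4 (0.996), and Gpnmb by Tmem74 (0.999), Map1a (0.998) and Il1rl1 (0.998). For Gask1b they were Elovl4 (0.992), Fgf7 (0.991) and Apol11b (0.991), and for Crabp2 Rps6ka2 (0.996), Osr2 (0.995) and Loxl1 (0.995). Crispld2 was followed by Msl1 (0.996), Hunk (0.995) and Pcdhb12 (0.994), of which Msl1 was expressed in both groups, at 41.9 and 162 CPM on average.

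Between members, r was highest for the pair Ostn and Crabp2 (0.981), followed by Tenm2 and Ostn (0.978) and Rgs17 and Gpnmb (0.975), and lowest for Tenm2 and Rgs17 (0.729), over the same 11 libraries. Rgs17 and Gpnmb were the members lower in MamBo43 TRT, and Tenm2 and Ostn those lower in MamBo38 of code b. Since the members were picked on these HER2 groups, the pairs are given as a description only.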

How the data were processed

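RNA-seq libraries of 11 cultures were made with a TruSeq kit that keeps no strand and read as 75 bases in single-end mode. The authors demultiplexed with bcl2fastq, aligned with STAR 2.5 and deposited expected counts of RSEM 1.3.0 per gene, on mm10 per the labels. All deposited values were whole numbers, and 0 columns were without a label. The annotation and any filter on low counts are not given in the sources used here. Groups followed the labels, with HER2 status from the methods.

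In R 4.3.3, genes were kept by filterByExpr of edgeR 4.0.16 (minimum count 10, minimum total 15), scaled by TMM and tested with glmQLFit and glmQLFTest, with Benjamini-Hochberg adjustment over all tested genes. Called genes had an adjusted p under 0.1 and a log2 fold change of 1 or more in size. The prior count was 0.125, and the SE is the absolute log2 fold change over the square root of F. Folds over 0 counts were bounded with 3 counts per library, and ratios of summed counts have exact binomial 95% intervals. The methods speak of replicates of each sample, while the labels list 1 library for each culture, and nothing says which libraries are separate cultures of a group, so p-values measure the spread between these libraries only. The members and gene lists were chosen with earlier results of these data known. Named genes are the members, relatives that were called, closest paralogs, and the 3 genes most like each member. Some genes of the lists are not reported here and were left out of the list counts. Fits were tested on simulated data. Alternatives were DESeq2 1.42.0, RLE size factors, filters, covariates, subsets of libraries and leaving out each library.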

Additional observations from a re-analysis of the deposited data

Results flagged for a closer look

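Of 18 member and group combinations with at least 4 libraries, 3 held a library whose gap to its nearest neighbor took up an unusually large part of the range (Dixon's test, which flags about 1 in 20 groups by chance). Tenm2 was at 6.67 CPM in untreated MamBo38 of code b, the lowest of the 6 HER2-negative libraries, with a gap of 0.694 of the range. Gask1b was at 139 CPM in MamBo43 TRT of 60 days, the highest of the same 6, with a gap of 0.761. Gpnmb was at 0.391 CPM (10 counts) in untreated MamBo43, the highest of the 5 HER2-positive libraries, with a gap of 0.876.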

How the results depend on the processing

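The HER2 comparison called 4052 genes, 2597 with at least 10 counts in every library, and between 3795 and 4607 when any 1 library was left out. With at least 10 counts in every library Crabp2 was the 1 member that could be fitted. The direction of the members in this comparison follows from their choice. Within tumor B only, the log2 fold change was -7.65 for Crispld2, 9.31 for Gpnmb, 10.04 for Gask1b and 9.73 for Ostn, and without untreated MamBo43 it was 13.00 for Gpnmb, 12.96 for Gask1b and 11.72 for Ostn. Of the relatives, Rgs20, Aldh1a3 and Fabp5 changed sign with the tumor covariate (0.67, 2.85 and 0.93) and within tumor B (0.64, 2.84 and 0.90); the cause was not tested. Besides the losses given with the relatives, Crabp1 (12.86) and Dcbld2 (1.64) were not called within tumor B, where their fold changes were larger than over all libraries and 1 HER2-positive library was left. Among untreated libraries only, Fjx1 (-2.32), Cyp26b1 (-1.54), Flrt1 (2.41), Rara (-0.90), Dhrs3 (1.13), Dipk1b (-0.82), Mitf (0.93), Aldh1a3 (-1.96), Fabp5 (-0.79) and Rgs20 (-0.12) were not called. Among libraries of code b only, Aldh1a3, Ctsk, Dhrs3, Dipk1b, Fabp5, Fam20a, Mitf and Rgs20 lost their calls. Crabp1, Atp6v0d2 and Flrt1 were not fitted there. For MamBo43 TRT against MamBo38, leaving out a library gave 2500 to 2729 genes, and for MamBo38 by library code 901 to 1057. Trastuzumab in MamBo89 called 0 genes, 3 with DESeq2, 5 without AG3, and 0 to 2296 when each library was left out. Trastuzumab in MamBo38 called 0, 4 with DESeq2, 8 within code a, and 0 to 1057 on leaving out each library. Untreated MamBo43 against MamBo89 called 952 genes, 1697 against all 4 MamBo89 libraries and 3319 against the 3 other than AG3, and leaving out the other MamBo89 or the MamBo43 library could not be fitted or left no comparison. No fit with a block for the replicate was made, since the labels give no replicate numbers and those used here follow accession order. The schedule and the library code were not used as a block. Whether the number of libraries or the depth limits the precision was not tested. Where a member was at 0 to 3 counts, its fold also depends on counting error.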
